A study of Sus scrofa with 41 samples.

Results

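The comparison set Danbred Duroc boars of high feed conversion ratio (FCR, feed eaten per unit of weight gained) against Duroc boars of low FCR, in the psoas major, a muscle of the loin. Of the 41 boars of the study, 13 were Duroc and 28 were Danbred Landrace. A Duroc pig entered the high-FCR group with an FCR of 1.98 or more and the low-FCR group with an FCR of 1.91 or less, which gave 5 pigs in each group, or 10 of the 41. The other 3 Duroc pigs, with FCR of 1.93, 1.94 and 1.97, lay between the groups. All were purebred, uncastrated males fed ad libitum at a single breeding station, with no treatment, and each gave 1 mRNA library from muscle collected directly after slaughter. They were young boars in performance testing and not lines selected for divergent FCR, so the groups were ends of the ordinary range within the breed. The high-FCR pigs 1 to 5 had FCR of 2.08, 1.99, 2.11, 2.18 and 1.98, and the low-FCR pigs 1 to 5 had FCR of 1.9, 1.85, 1.83, 1.89 and 1.91.

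FCR is read here as feed per gain because the label values are well above 1, more than a pig can gain from the same weight of feed. The study's text words the ratio in both directions, and the labels do not define it. Read this way, a pig of low FCR is a feed-efficient pig. Skeletal muscle is the largest store of protein in a growing pig, and its use of feed depends on the mitochondria that supply ATP, on the ribosomes and proteasomes that make and remove protein, and on the connective tissue and vessels around the fibres. Fibres take up most of the RNA of such a sample, while fibroblasts, endothelial cells, satellite cells (the stem cells of muscle), nerve and fat contribute the rest. In whole muscle, more cells of a type and more RNA per cell cannot be told apart.

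Measures that can move RNA levels were compared first. The RNA integrity number (RIN) was 8.22 ± 0.396 (SD) in the high-FCR pigs and 7.92 ± 0.554 in the low-FCR pigs (exact permutation test, two-sided, p = 0.429, adjusted p = 0.429). Age at sampling was 151 ± 5.22 days against 145 ± 9.89 days (exact permutation test, p = 0.357, adjusted p = 0.429). The slaughter batches, which were also the sampling days, held 0 high-FCR and 1 low-FCR pig in batch 1, 1 and 1 in batch 2, 1 and 0 in batch 3, 1 and 1 in batch 4, and 2 and 2 in batch 5. The 10 libraries held between 22588717 and 25873606 read pairs assigned to genes. The TMM factor, which scales each library so that most genes agree between pigs, was 0.999 to 1.11 in the high-FCR pigs and 0.721 to 0.978 in the low-FCR pigs, without overlap (exact permutation test, p = 0.00794, the smallest that splits of 5 against 5 allow; adjusted p = 0.0556 over 7 measures). Low-FCR pig 2 stood apart, with the lowest RIN (7), the lowest count and 30.8% of counts on the 13 mitochondrially encoded genes. It had 59% of counts on the 20 genes most counted over the 10 pigs together. The 13 mitochondrially encoded genes took 13.7 ± 2.35% of the counts in the high-FCR pigs and 19.2 ± 7.1% in the low-FCR pigs (exact permutation test, p = 0.111, adjusted p = 0.259). The 20 most counted genes took 45.4 ± 1.11% against 49.8 ± 5.42% (exact permutation test, p = 0.0397, adjusted p = 0.139).

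**Figure D1:**
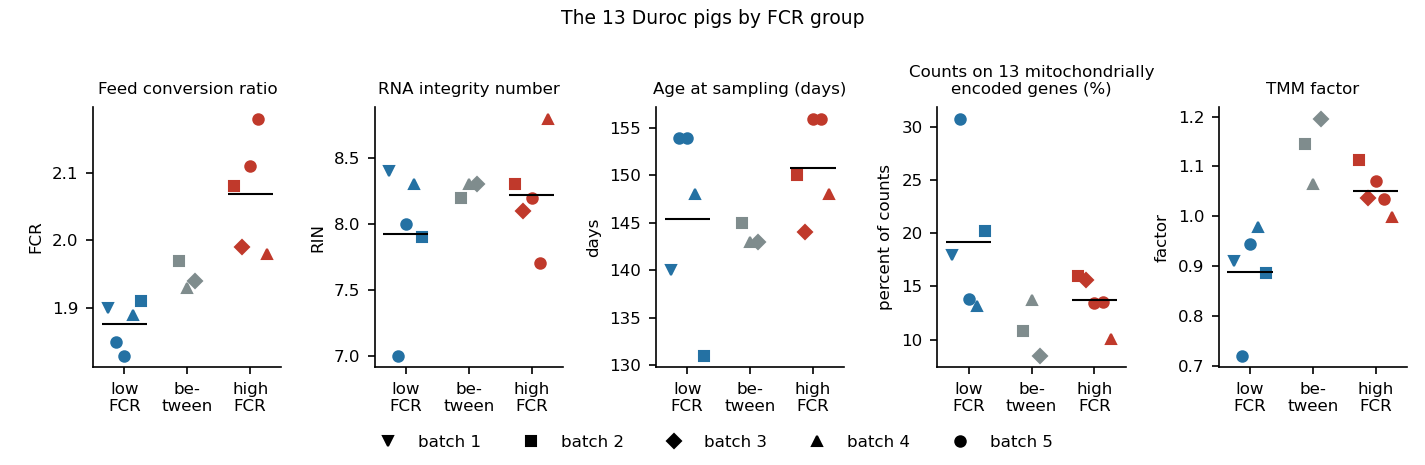
Each point is 1 Duroc pig, with FCR (feed per gain), RIN, age in days, percent of counts on mitochondrially encoded genes, and TMM factor on the vertical axes, and the low-FCR, between and high-FCR pigs on the horizontal axes. The marker shape gives the batch and the line the group mean (5 pigs), and low-FCR pig 2 lies alone at a RIN of 7 and a TMM factor of 0.721.

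With RIN in the model, 11814 genes were tested by the quasi-likelihood test of edgeR, and 1 gene passed a Benjamini-Hochberg FDR of 0.1. It was RASL11A, which rose in the high-FCR pigs (0.00846% of the genes tested), and 0 genes were lower (0.0%). Without adjustment, 1351 genes (11.4%) were higher and 973 genes (8.24%) lower at a p-value under 0.05. Many genes lay just beyond the threshold, and the leading ones after RASL11A shared an FDR of 0.115 to 0.13. The difference was positive in 52.5% of genes and negative in 47.5%. With RIN removed from the model 0 genes passed the FDR, and 9.24% were higher and 9.02% lower at a p-value under 0.05. DESeq2 with RIN called 958 genes at the same FDR. In the 8 pigs of batches 2, 4 and 5, with batch and RIN in the model, 9.15% were higher and 3.32% lower, and without low-FCR pig 2 these shares were 11.9% and 8.94%.

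RASL11A encodes a small GTPase of the Ras superfamily (chromosome 11, 4746408 to 4748895). It stood at 2.37, 3.31, 3.23, 3.89 and 1.09 CPM (counts relative to the library total, scaled by the TMM factors) in high-FCR pigs 1 to 5 and at 0.297, 2.46, 1.01, 0.697 and 0.76 CPM in low-FCR pigs 1 to 5. The groups overlapped through high-FCR pig 5, which had the highest RIN (8.8) of the 10, and low-FCR pig 2, which had the lowest. RASL11A fell with RIN, by 1.7 on the log2 scale per RIN unit (edgeR FDR = 0.0226). At equal RIN it rose in the high-FCR pigs by a log2 difference of 2.06 ± 0.25 (SE), with an edgeR FDR of 0.0486. Without RIN in the model the log2 difference was 1.43 and the FDR 0.176, and with RIN and age it was 1.95 and 0.335. Leaving out 1 pig at a time gave 1.88 to 2.21, and the FDR exceeded 0.1 without low-FCR pig 1 or 5 or high-FCR pig 1, 3 or 4, reaching 0.235. The 3 pigs between the groups had 1.4, 1.23 and 1.39 CPM, close to the low-FCR mean of 1.05. RASL11A had few counts, 7 to 102 per pig.

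The other leading genes on the higher side did not pass the FDR. KIRREL1, a cell adhesion protein of the immunoglobulin superfamily, gave 2.47, 1.27, 3.23, 2.94 and 2.92 CPM in the high-FCR pigs and 0.765, 0.676, 1.01, 0.451 and 0.358 CPM in the low-FCR pigs. No high-FCR pig lay as low as any low-FCR pig, and the 3 pigs between the groups had 3, 2.76 and 2.72 CPM, on the level of the high-FCR pigs. Its log2 difference was 1.93 ± 0.348 (SE; edgeR FDR = 0.116), had a RIN coefficient of 0.04 per unit and was 1.79, 1.85 and 1.42 within batches 2, 4 and 5. APOA1, the main protein of high-density lipoprotein, gave 6.26, 7.59, 8.81, 12.2 and 5.73 CPM against 2.8, 7.37, 4.9, 3.65 and 2.95 CPM, overlapping through low-FCR pig 2 (log2 difference 1.19 ± 0.178, edgeR FDR = 0.115). CXCL2, a chemokine that attracts neutrophils, gave 3.86, 2.43, 4.33, 3.78 and 2.14 CPM against 0.085, 2.27, 0.634, 0.985 and 0.939 CPM (2.32 ± 0.434, edgeR FDR = 0.116). Low-FCR pig 2 was again the 1 low-FCR pig inside the range of the high-FCR pigs.

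NDRG1, a gene induced by hypoxia and during differentiation, gave 4.28, 5.16, 5.25, 7.97 and 6.59 CPM in the high-FCR pigs and 3.27, 2.95, 2.92, 2.5 and 3.09 CPM in the low-FCR pigs. The groups did not overlap, and the 3 pigs between them had 7.13, 7.27 and 7.25 CPM, above all but 1 of the high-FCR pigs. The log2 difference was 1 ± 0.191 (edgeR FDR = 0.116). GLIS2, a zinc finger transcription factor, differed little within the groups, at 6.86 ± 0.23 (SD, n = 5) against 4.53 ± 0.366 CPM, with a log2 difference of 0.62. IQSEC2, an exchange factor for Arf GTPases, had a log2 difference of 1.31, TBC1D2B, a Rab GTPase-activating protein, had 1.01, and the transcriptional regulator IRF2BPL had 0.81.

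On the lower side, COMMD1, which acts in copper handling and in the turnover of NF-kappaB, gave 9.29, 9.09, 9.98, 9.8 and 9.82 CPM in the high-FCR pigs and 14.4, 12, 14.4, 12.8 and 13.6 CPM in the low-FCR pigs, without overlap. Its log2 difference was -0.53 ± 0.1 (edgeR FDR = 0.116), although 1 of the 3 pigs between the groups, at 12.7 CPM, sat with the low-FCR pigs. SERPINB6, an intracellular protease inhibitor, gave 27.4, 23.7, 25.6, 27.4 and 46.5 CPM against 58.3, 35.2, 58.5, 50.7 and 62.9 CPM (-1.02 ± 0.159, edgeR FDR = 0.115). The overlap came from high-FCR pig 5 and low-FCR pig 2, the pigs of highest and lowest RIN. PKDCC, a secreted kinase, was at 33.7 ± 10.9 (SD, n = 5) against 54.1 ± 28.9 CPM and rose with RIN, by 1.5 per RIN unit. Its log2 difference was -1 with RIN in the model and -0.7 (p = 0.0884, edgeR) without it.

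TMEM126B, an assembly factor of respiratory complex I, was at 8.68 ± 0.459 (SD, n = 5) against 12 ± 1.53 CPM, and MALSU1, an assembly factor of the mitochondrial ribosome, at 13.5 ± 0.65 against 20.6 ± 3.21 CPM, each with a log2 difference of -0.54. The groups of both did not overlap. NDUFB1, a subunit of complex I, gave 8.18, 10.2, 7.96, 9 and 10.7 CPM against 15.6, 11.6, 13.9, 11.8 and 14.5 CPM, also without overlap (-0.62 ± 0.134, edgeR FDR = 0.13). POLB, the DNA polymerase of base excision repair, had a log2 difference of -0.46, UBE2S, a ubiquitin-conjugating enzyme of the anaphase-promoting complex, -0.51, ZNF511 -0.6, C7orf50 -0.64 and RASGEF1B, an exchange factor of Rap GTPases, -0.73. Over all tested genes, 215 (1.82%) had every high-FCR pig above every low-FCR pig and 332 (2.81%) had every one below. Scaled by the total count in place of the TMM factors, these numbers were 803 and 27.

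**Figure D2:**
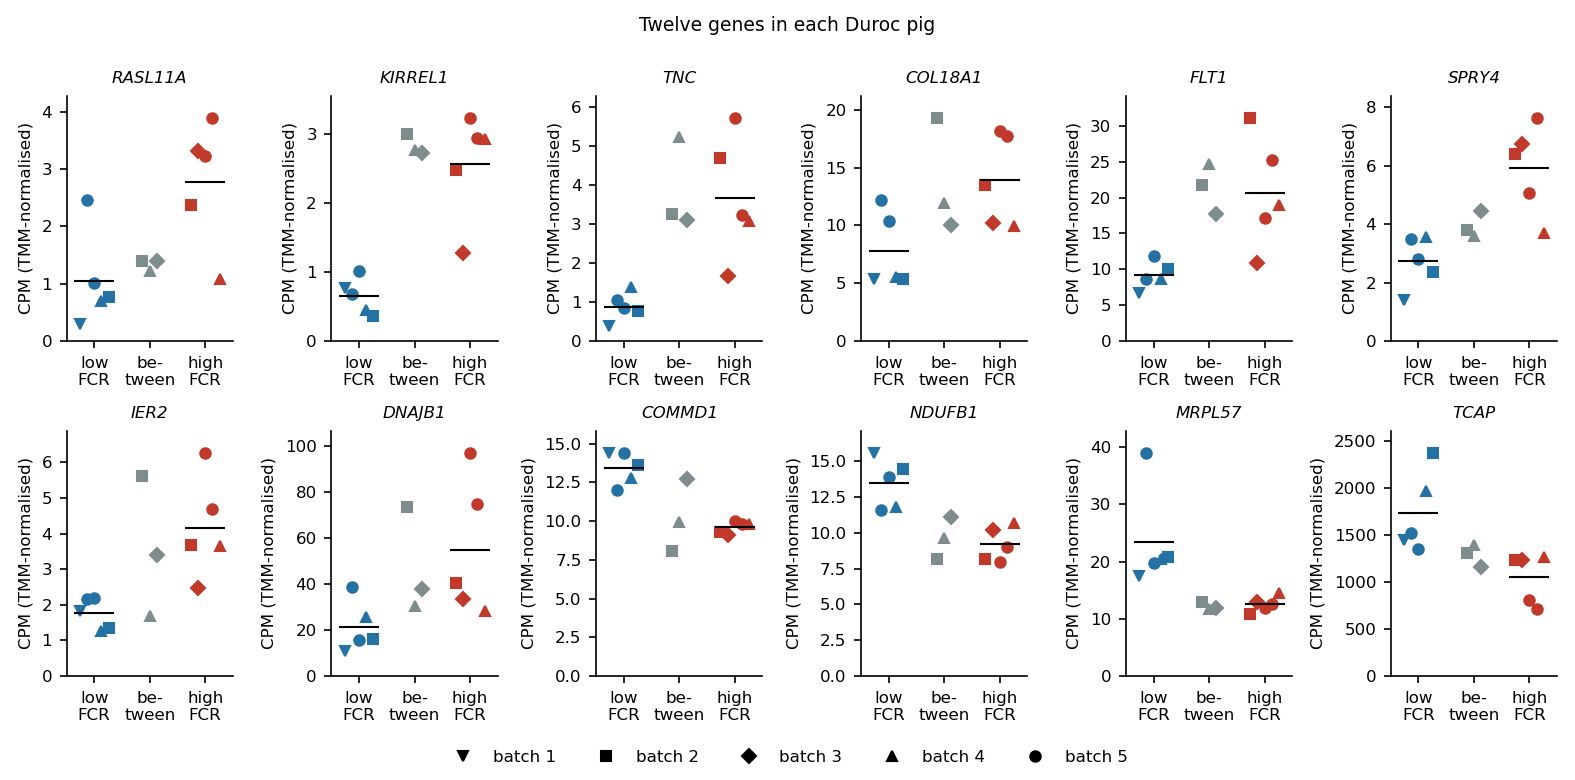
CPM scaled by the TMM factors (vertical axes, from 0) of RASL11A, KIRREL1, TNC, COL18A1, FLT1, SPRY4, IER2, DNAJB1, COMMD1, NDUFB1, MRPL57 and TCAP in each Duroc pig, by FCR group. The line is the mean of 5 pigs and the marker shape the batch, and for KIRREL1, TNC and MRPL57 the 3 pigs between the groups lie with the high-FCR pigs.

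Functions were described through 45 gene lists. For each list the number of tested members with an unadjusted edgeR p-value under 0.05 is given in each direction, to be read against 11.4% higher and 8.24% lower over all genes, with the median log2 difference against 0.02 over all genes. Lists of the extracellular matrix, the endothelium, complement, the insulin-like growth factor (IGF) system and ERK feedback lay highest. Lists of mitochondrial ribosomal proteins, respiratory chain subunits, mitochondrially encoded genes, slow-fibre contractile genes and cytosolic ribosomal proteins lay lowest. The proteasome, sarcomere and Z-disc structure, and creatine and adenylate buffering followed at -0.26 each. Scaling by total count moved the median of all genes from 0.02 to 0.23, and the list medians with it. Lists with medians nearer 0, such as atrophy, heat shock proteins, glycolysis, glycogen metabolism and mTORC1, changed sign on that scale. Many genes also varied with RIN across the pigs. At an FDR of 0.1, 9.07% of all genes rose and 7.91% fell with RIN.

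**Figure D3:**
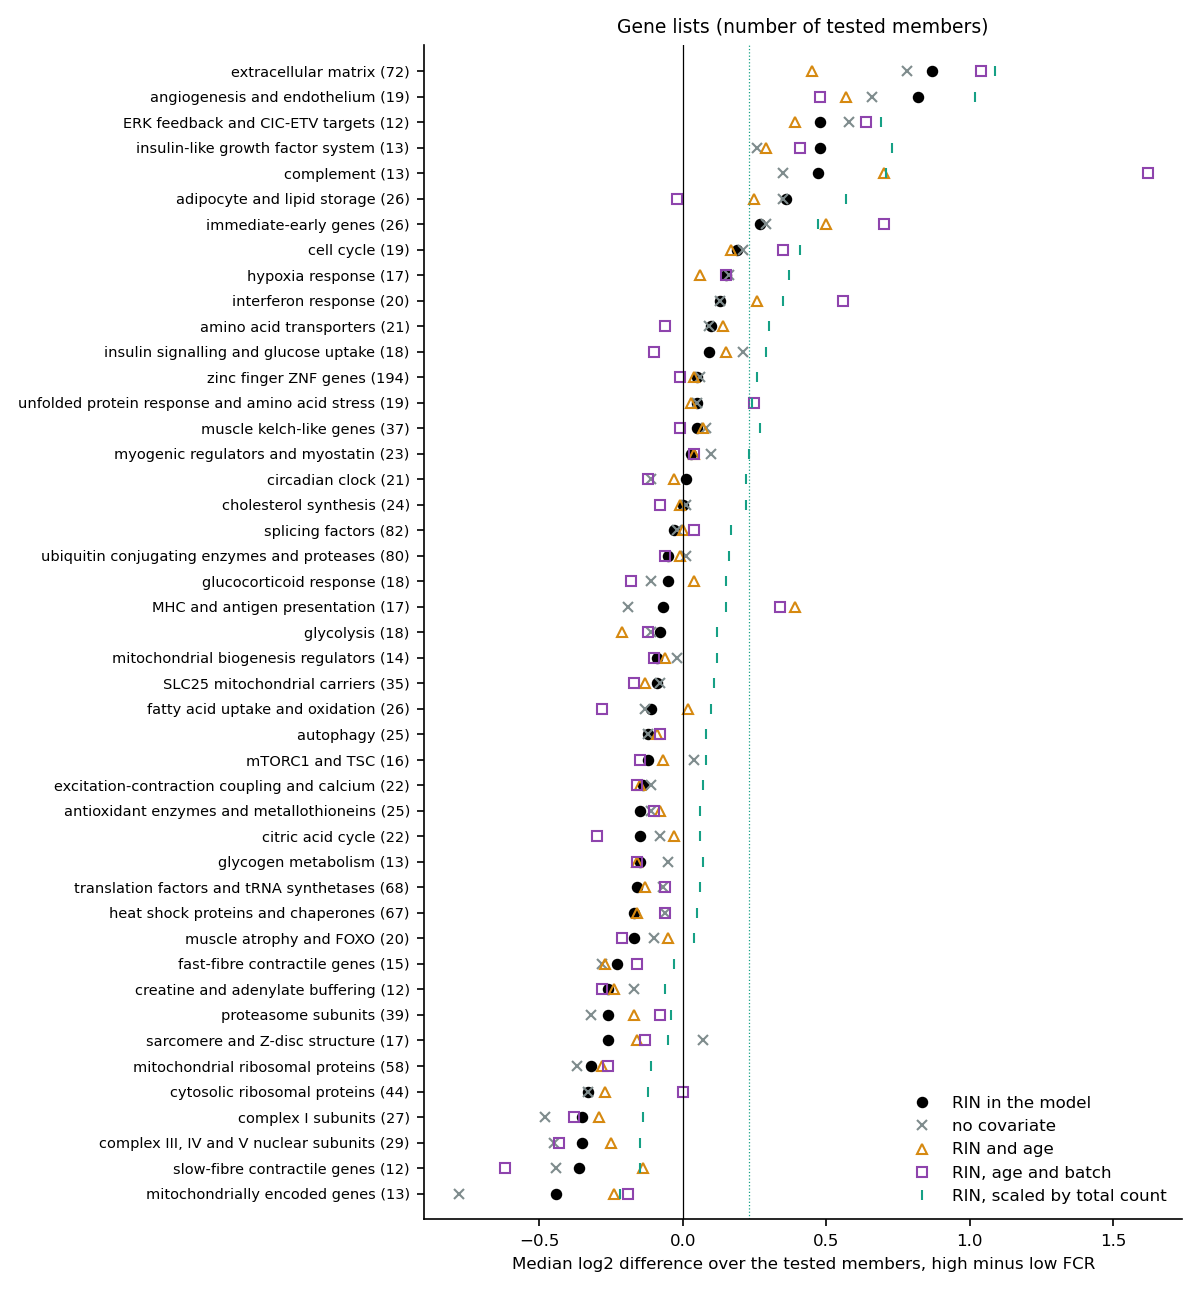
Median log2 difference (horizontal axis, high minus low FCR) over the tested members of each of the 45 lists, with RIN in the model (filled circles) and under 4 other models or scalings. The extracellular matrix lies at 0.87 with RIN and at 0.45 with RIN and age, and the dotted line marks the median of all genes scaled by total count, 0.23.

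The extracellular matrix list holds the collagens, laminins, fibulins, their proteoglycans and the enzymes that cut or cross-link them. Of its 109 genes, 72 passed the filter on low counts, and 70 of these had a higher level in the high-FCR pigs, 38 of them with a p-value under 0.05 and 0 lower ones. The median log2 difference was 0.87. TNC, tenascin-C, a matrix protein made in tendon and in remodelling muscle (chromosome 1, 255533235 to 255630381), gave 4.7, 1.66, 5.72, 3.24 and 3.08 CPM in the high-FCR pigs and 0.382, 1.04, 0.845, 1.39 and 0.76 CPM in the low-FCR pigs. It was the 1 member whose groups did not overlap, and the pigs between the groups, at 3.25, 5.22 and 3.11 CPM, lay with the high-FCR pigs. Its log2 difference was 2.06 ± 0.404 (edgeR FDR = 0.116) and was 2.04, 0.92 and 1.74 within batches 2, 4 and 5.

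COL18A1, whose cleavage releases endostatin, gave 13.5, 10.2, 18.2, 17.7 and 9.94 CPM against 5.4, 12.2, 10.4, 5.58 and 5.37 CPM (log2 difference 1.08 ± 0.22, edgeR FDR = 0.116). LAMB2, the laminin beta chain of the neuromuscular junction and of vessels, gave 122, 83.9, 106, 107 and 74.9 CPM against 47.4, 46.2, 76.5, 37.1 and 59.2 CPM (0.92 ± 0.207, edgeR FDR = 0.13). Both overlapped by few pigs, COL18A1 through low-FCR pigs 2 and 3 and LAMB2 through low-FCR pig 3 against high-FCR pig 5. COL4A2, a network collagen of basement membranes, had a log2 difference of 0.87 ± 0.277, LAMA4, a laminin of vessel walls, 0.93 ± 0.353, and COL6A3, which anchors basement membrane to the interstitium, 1.04 ± 0.351.

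The abundant fibrillar collagens were more variable. COL1A1 gave 517, 382, 1330, 1060 and 520 CPM in the high-FCR pigs and 687, 480, 378, 232 and 304 CPM in the low-FCR pigs, so that the high-FCR mean was carried by pigs 3 and 4, both from batch 5. COL1A1 in the pigs between the groups was 2190, 582 and 639 CPM, and its log2 difference was 0.91 ± 0.381 (edgeR FDR = 0.225). COL3A1 had 0.83 ± 0.517, FN1, fibronectin, 1.45 ± 0.639, and the small proteoglycan DCN, decorin, 0.46 ± 0.426.

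The list as a whole did not separate the groups. The level of a list is the median over members of the log2 CPM relative to the mean of the 10 compared pigs. For this list it was 0.37, -0.47, 0.9, 0.75 and 0.28 in the high-FCR pigs and 0.05, -0.22, -0.08, -0.84 and -0.74 in the low-FCR pigs. High-FCR pig 2, the 1 pig of batch 3 in the comparison, lay within the low-FCR range. Within batches 2, 4 and 5 the high-FCR pigs exceeded the low-FCR pigs by 1.11, 1.12 and 0.97. The median log2 difference was 0.45 with age added, with 13 members higher at a p-value under 0.05 (6.4% of all genes), and was 1.04 with age and batch, with 48 higher (7.91% of all genes). The part of age in the result was not tested.

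The angiogenesis and endothelium list (19 of 23 genes tested) showed the same direction in 18 genes, 14 of them with a p-value under 0.05, and a median log2 difference of 0.82. ESAM, an adhesion molecule of endothelial junctions, gave 23.2, 15.9, 20, 25.1 and 19.3 CPM in the high-FCR pigs and 9.39, 14.5, 15.4, 12.1 and 13.5 CPM in the low-FCR pigs. NOS3, the endothelial nitric oxide synthase, gave 8.98, 6.28, 7.6, 8.58 and 9.55 CPM against 3.44, 4.24, 6.17, 3.53 and 5.55 CPM. Neither gene overlapped between the groups, with log2 differences of 0.75 ± 0.153 and 0.82 ± 0.21 (edgeR FDR = 0.116 and 0.131). FLT1, a receptor of vascular endothelial growth factor, gave 31.1, 10.9, 17.1, 25.3 and 18.9 CPM against 6.63, 8.66, 11.8, 8.62 and 10.1 CPM (1.19 ± 0.272, edgeR FDR = 0.13). KDR, a receptor of VEGFA, had a log2 difference of 1.07 and VEGFA itself 0.06 ± 0.148. TEK, the receptor of the angiopoietins, had 1.04, with ANGPT2 at 1.06 ± 0.372 and ANGPT1 at -0.32 ± 0.297. The median of the list was 0.57 with age, with 8 genes higher at a p-value under 0.05 (6.4% of all genes), and 0.48 with age and batch, with 5 (7.91% of all genes). The list level was higher by 0.81, 0.82 and 0.59 within batches 2, 4 and 5.

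Markers of other cell types were compared beside these lists. All 6 tested endothelial markers (CDH5, EMCN, KDR, PECAM1, TEK and TIE1) were higher with a p-value under 0.05, and their summed level was 94.7 to 192 CPM in the high-FCR pigs and 65.2 to 147 CPM in the low-FCR pigs. Of 8 fibroblast markers 7 were higher, 2 of them with a p-value under 0.05 (summed level 763 to 3490 against 608 to 2260 CPM). All 5 tested smooth muscle and pericyte markers were higher, 2 of them with a p-value under 0.05 (247 to 455 against 157 to 395 CPM). The 5 satellite cell markers were higher too, 2 of them with a p-value under 0.05 (32.9 to 64.8 against 16 to 41.5 CPM). The 3 Schwann cell and nerve markers ranged widely, at 17.3 to 225 against 22 to 73.9 CPM in sum, with SOX10 at a log2 difference of 2.64 ± 0.787. The 4 adipocyte markers were higher, 1 with a p-value under 0.05 (152 to 295 against 125 to 238 CPM). Leukocyte markers were higher in 11 of 12 genes, but 0 had a p-value under 0.05 (41.5 to 68.9 against 27.9 to 73.6 CPM), 1 of the 2 tested B cell and plasma cell markers was higher with a p-value under 0.05 (5.7 to 7.27 against 4.24 to 7.01 CPM), and the 2 tested erythroid markers were lower (6.45 to 28.5 against 14.9 to 94.5 CPM). The 5 muscle fibre markers tested (ACTA1, CKM, DES, TNNI2 and TNNT3) were all lower, 1 with a p-value under 0.05, at 127000 to 166000 against 154000 to 171000 CPM in sum, and another 7 of the 12 markers fixed had no matching symbol. Every summed range overlapped between the groups, no marker in the tables was at 0 in all 10 pigs, and the part of cell composition in the matrix and endothelial results was not tested.

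The complement list was higher in all 13 tested genes, 5 of them with a p-value under 0.05, with a median log2 difference of 0.47. C4A, of the classical pathway, had 1.4 ± 0.51, SERPING1, the C1 inhibitor, 0.82 ± 0.28, and CLU, clusterin, 0.79 ± 0.253, or 0.48 (p = 0.135, edgeR) without RIN in the model. The C1q chains made by macrophages were level (C1QA 0.07, C1QB 0.08, C1QC 0.14). The list level was lower by 0.32 in the high-FCR pig of batch 2 and higher by 0.73 and 0.75 within batches 4 and 5, so its direction was not the same in all batches. Its median was 0.7 with age, with 2 genes higher at a p-value under 0.05 (6.4% of all genes), 1.62 with age and batch, with 12 (7.91%), and 1.12 in the 8 pigs of batches 2, 4 and 5, with 4 (9.15%). In the IGF system 10 of 13 tested genes were higher, 4 of them with a p-value under 0.05, and the median was 0.48. With age the median was 0.29, with 1 gene at a p-value under 0.05, a share near the 6.4% of all genes. The members with the smallest p-values were binding proteins. IGFBP4, which holds IGF away from its receptor, gave 9.53, 7.4, 14.9, 15.2 and 10.8 CPM against 7.14, 9.09, 7.57, 3.49 and 4.52 CPM (1 ± 0.266, edgeR FDR = 0.132), with overlap through high-FCR pig 2. IGFBP5 and IGFBP7 had 0.82 ± 0.283 and 0.55 ± 0.219, of which IGFBP5 had 0.42 (p = 0.322, edgeR) without RIN in the model, while IGF1 had 0.58 ± 0.285 and its receptor IGF1R -0.09 ± 0.418.

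Fat genes leaned the same way with less weight behind each gene. Of 26 tested genes of the adipocyte and lipid storage list 22 were higher, 5 of them with a p-value under 0.05, with a median of 0.36 that went to -0.02 with age and batch in the model. PPARG, the regulator of fat cell formation, was at 1.39 ± 0.296 (SD, n = 5) against 0.76 ± 0.327 CPM (log2 difference 1.09 ± 0.298, edgeR FDR = 0.132). FADS1, a fatty acid desaturase, had 0.77 ± 0.296 and ACACA, of fatty acid synthesis, 0.38 ± 0.158. FASN, which completes that synthesis, was level at -0.01 ± 0.261.

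Genes that answer to growth factor signals through ERK were higher in 11 of 12 tested members of the ERK feedback list, 6 of them with a p-value under 0.05, with a median log2 difference of 0.48. SPRY4, a feedback inhibitor of receptor tyrosine kinase signalling (chromosome 2, 143877334 to 143891280), gave 6.4, 6.74, 5.06, 7.63 and 3.7 CPM in the high-FCR pigs and 1.4, 3.5, 2.79, 3.57 and 2.37 CPM in the low-FCR pigs. The groups were separate by a narrow margin, between high-FCR pig 5 and low-FCR pig 4, both of batch 4, and the pigs between the groups had 3.81, 3.58 and 4.44 CPM, at the lower end of the high-FCR range or just under it. The log2 difference of SPRY4 was 1.26 ± 0.235 (edgeR FDR = 0.116), against 0.91 ± 0.26 for DUSP6, the phosphatase of ERK, and 0.81 ± 0.234 for the transcription factor ETV1. DUSP4, another ERK phosphatase, was the member on the lower side (-0.41 ± 0.242). The level of the whole list was 0.03 to 0.46 in the high-FCR pigs and -0.5 to -0.07 in the low-FCR pigs, with no overlap, and -0.1 to 0.17 in the pigs between the groups. Within batches 2, 4 and 5 the list was higher by 0.66, 0.22 and 0.51, and SPRY4 by 1.27, 0.05 and 0.89. The list median was 0.39 with age, with 4 genes higher at a p-value under 0.05 (6.4% of all genes). With age and batch it was 0.64, with 3 (7.91%).

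The immediate-early list, genes induced within minutes of a stimulus, was mixed, with 7 of 26 tested genes higher and 2 lower at a p-value under 0.05. IER2 gave 3.69, 2.47, 6.27, 4.69 and 3.66 CPM against 1.83, 2.15, 2.2, 1.27 and 1.34 CPM, without overlap (1.31 ± 0.272, edgeR FDR = 0.12), and by 1.19, 1.23 and 1.15 within batches 2, 4 and 5. The growth response factors EGR1 and EGR2 had log2 differences of 1.48 ± 0.436 and 1.92 ± 0.462. FOS had 0.27 ± 0.656 and JUN -0.38 ± 0.266.

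**Figure D4:**
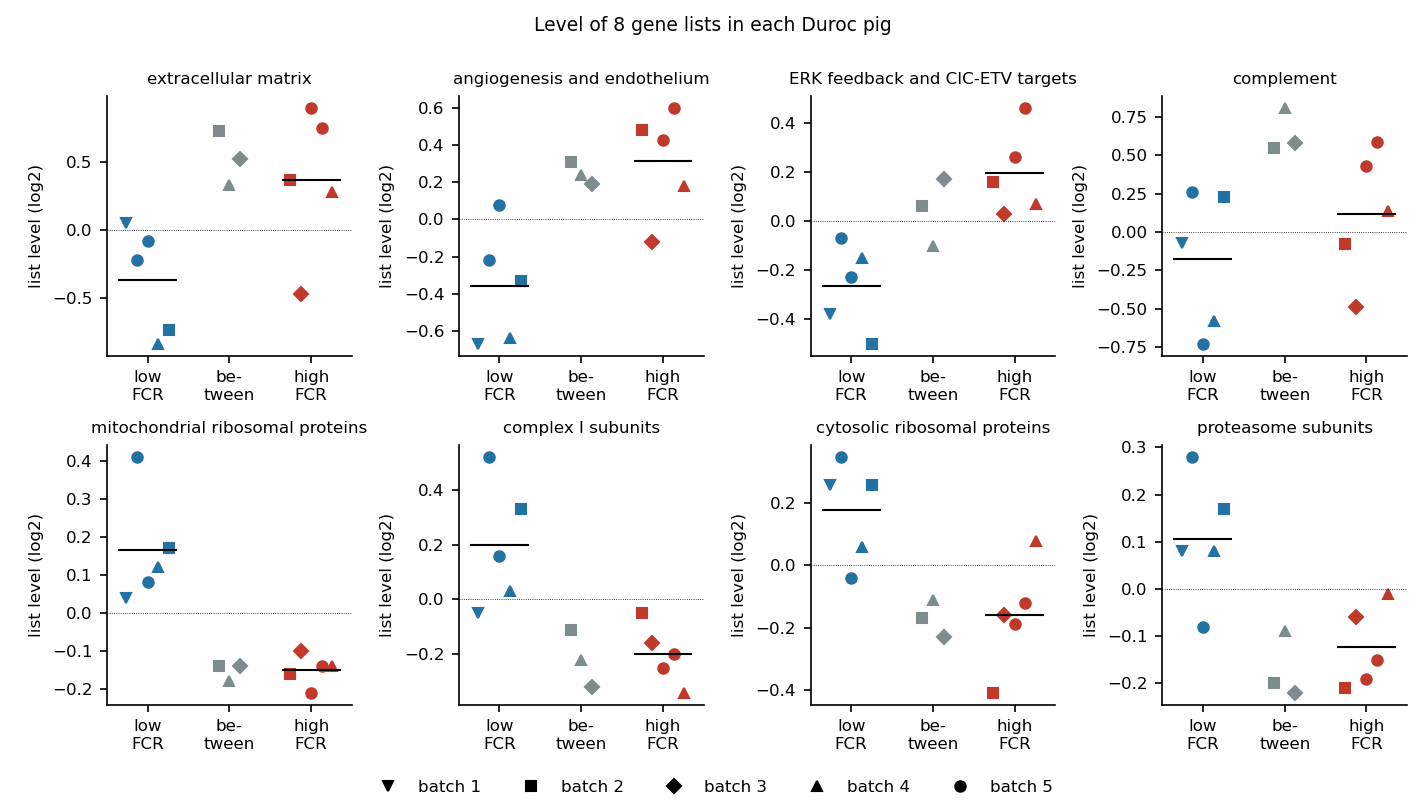
Level of 8 gene lists in each Duroc pig, as the median over members of log2 CPM relative to the mean of the 10 high-FCR and low-FCR pigs (vertical axes). The line is at the mean of 5 pigs and the marker shape gives the batch. The mitochondrial ribosomal proteins and the ERK feedback genes do not overlap between the high-FCR and low-FCR pigs, and the 3 pigs between the groups lie with the high-FCR pigs for the mitochondrial ribosomal proteins.

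Mitochondrial genes made up the clearest group on the lower side. Of 58 tested mitochondrial ribosomal proteins, which build the ribosome that translates the mitochondrial genome, 56 were lower in the high-FCR pigs, 31 of them with a p-value under 0.05 and 0 higher, and 14 did not overlap between the groups (2.81% of all genes). The median log2 difference was -0.32. MRPL57 (chromosome 11, 1320846 to 1321829) gave 10.8, 13, 11.8, 12.6 and 14.5 CPM in the high-FCR pigs and 17.5, 39, 19.7, 20.5 and 20.8 CPM in the low-FCR pigs. Low-FCR pig 2 was far above the rest, but without it the groups were still apart, and the log2 difference was -0.71 ± 0.183 (edgeR FDR = 0.131), and -0.6 to -0.81 when 1 pig at a time was left out. MRPL19 and MRPL9 had smaller and more even differences of -0.42 ± 0.106 and -0.43 ± 0.109. The level of the list was -0.16, -0.1, -0.21, -0.14 and -0.14 in the high-FCR pigs and 0.04, 0.41, 0.08, 0.12 and 0.17 in the low-FCR pigs. It was lower by 0.33, 0.26 and 0.42 in the high-FCR pigs of batches 2, 4 and 5, and the median was -0.28 with age and -0.26 with age and batch. The number lower at a p-value under 0.05 went from 31 to 19 with age (4.16% of all genes) and to 4 with age and batch (1.68% of all genes). The median RIN coefficient was -0.21 per unit. At an FDR of 0.1, 12 genes fell with RIN (7.91% of all genes) and 3 rose (9.07%). Without RIN in the model the median difference was -0.37.

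The nuclear genes of the respiratory chain followed. Complex I, which takes electrons from NADH, had 25 of 27 tested subunits lower, 20 of them with a p-value under 0.05, and a median of -0.35. Complexes III, IV and V, which end in ATP synthase, had 27 of 29 lower, 17 of them with a p-value under 0.05, and the same median. NDUFB2 gave 36.2, 35.4, 31, 31.7 and 32.1 CPM against 43.2, 62.8, 48.4, 41.6 and 57.8 CPM, without overlap (-0.52 ± 0.122, edgeR FDR = 0.131). ATP5PF, a coupling subunit of ATP synthase, gave 97, 97.5, 87.3, 88.8 and 84.5 CPM against 123, 180, 118, 114 and 142 CPM, also without overlap (-0.47 ± 0.117, edgeR FDR = 0.131). In both genes the high-FCR pigs lay close together and the spread was in the low-FCR pigs. These lists also moved with RNA quality. The median RIN coefficient was -0.29 per unit for complex I and -0.32 for complexes III to V, with 6 and 7 genes falling with RIN at an FDR of 0.1 (7.91% of all genes), and the medians without RIN in the model were -0.48 and -0.45. Low-FCR pig 2 had the highest level of both lists, at 0.52. UQCRQ of complex III and COX7A2 of complex IV had log2 differences of -0.5 and -0.55. With age in the model, 10 complex I genes were lower at a p-value under 0.05 (4.16% of all genes), and with age and batch 5 were (1.68%). The medians of complex I were then -0.29 and -0.38. For complexes III to V these numbers were 10 and 11, with medians of -0.25 and -0.43.

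The list differences were small next to those of the matrix. Of 22 tested genes of the citric acid cycle, 3 were lower at a p-value under 0.05, with a median of -0.15, among them IDH3G (-0.38 ± 0.101). Of 26 genes of fatty acid uptake and oxidation 4 were lower and 1 higher, with a median of -0.11, and the lower ones included ECHS1 (-0.37 ± 0.115) and PDK4 (-0.53 ± 0.177), which had -0.33 (p = 0.211, edgeR) without RIN in the model. The regulators of mitochondrial biogenesis had a median of -0.09, turning to 0.12 on total counts, with PPARGC1A at -0.95 ± 0.547 and TFAM at -0.12 ± 0.118. Under scaling by total count the median of the mitochondrial ribosomal proteins was -0.11, that of complex I -0.14 and that of complexes III to V -0.15, against 0.23 for all genes, with 2, 2 and 1 genes lower at a p-value under 0.05 (0.931% of all genes), while the citric acid cycle turned to 0.06 and fatty acid oxidation to 0.1. With RIN, age and batch these 2 lists had medians of -0.3 and -0.28, with 0 and 3 genes lower at a p-value under 0.05.

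The 13 protein-coding genes of the mitochondrial genome were all lower, 5 of them with a p-value under 0.05 and 0 without overlap, with a median of -0.44. COX1, a core subunit of complex IV, gave 22100, 23300, 18100, 19300 and 14900 CPM in the high-FCR pigs and 40600, 69200, 23600, 21700 and 32900 CPM in the low-FCR pigs. The low-FCR pigs of batches 4 and 5 other than pig 2 lay near or within the high-FCR range. The log2 difference of COX1 was -0.68 ± 0.245 with RIN in the model (edgeR FDR = 0.18) and -0.97 without it. Of the 13 genes, 11 fell with RIN at an FDR of 0.1 (7.91% of all genes), and the median RIN coefficient was -0.81 per unit. Low-FCR pig 2, of lowest RIN, had the highest level of this list, at 1.4. The part of RNA quality was not tested. With RIN and age the median difference was -0.24, with 1 gene at a p-value under 0.05.

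Cytosolic ribosomal proteins, which share many near-identical copies in the genome so that some of their pairs may not have been counted, were lower in 43 of 44 tested genes, 25 of them with a p-value under 0.05. The median was -0.33. RPS29 gave 87.1, 113, 102, 104 and 131 CPM against 137, 141, 144, 150 and 172 CPM, without overlap (-0.52 ± 0.133, edgeR FDR = 0.131). RPSA had -0.51 ± 0.137, and RPS27L, a paralogue induced by p53 rather than a standard subunit, -0.46 ± 0.11. The difference varied by batch, since the list was lower by 0.67 and 0.31 in the high-FCR pigs of batches 2 and 5 and higher by 0.02 in batch 4. The median was -0.27 with age and 0.00 with age and batch, where 0 genes had a p-value under 0.05, and on total counts it was -0.12, with 4 genes lower (0.931% of all genes) and 1 higher (23.7%). Proteasome subunits were lower in 38 of 39 genes, 13 of them with a p-value under 0.05, with a median of -0.26. PSMA2, of the outer ring of the core particle, gave 20.6, 21.8, 19, 19.7 and 22.3 CPM against 34.2, 24.8, 21, 24.9 and 27.8 CPM (-0.42 ± 0.134, edgeR FDR = 0.154), and overlapped through low-FCR pig 3. With age in the model 0 proteasome genes had a p-value under 0.05, and on total counts 0 were lower and the median was -0.04.

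Few contractile genes had a p-value under 0.05. Fast-fibre genes were lower in 14 of 15 cases, 2 of them with a p-value under 0.05 (MYOZ1 -0.34 ± 0.122 and TNNT3 -0.39 ± 0.151), with a median of -0.23. Slow-fibre genes had a median of -0.36 and 1 gene of 12 with a p-value under 0.05, the LIM protein CSRP3 at 16.9 ± 12.4 against 41.4 ± 14.3 CPM. The level of the slow-fibre list ranged from -0.6 to 0.26 in the high-FCR pigs and from -0.32 to 1.03 in the low-FCR pigs, a spread wider than the difference. Within batches 2, 4 and 5 it was lower in the high-FCR pigs by 0.77, 0.41 and 0.57. The slow-fibre median was -0.14 with age, with 0 genes at a p-value under 0.05, and -0.67 in the 8 pigs of these batches, with 7 lower (3.32% of all genes). The groups of MYOZ1 and TNNT3 did not overlap, by narrow margins. TCAP, the titin cap of the Z-disc (chromosome 12, 22651666 to 22652904), gave 1230, 1230, 810, 710 and 1260 CPM in the high-FCR pigs and 1440, 1520, 1350, 1970 and 2370 CPM in the low-FCR pigs, without overlap and with the lowest values in the 2 high-FCR pigs of batch 5 (-0.84 ± 0.225, edgeR FDR = 0.132).

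Regulators of myogenesis were higher in 5 and lower in 1 of 23 tested genes at a p-value under 0.05, with a median of 0.03. MYOD1, the factor that commits cells to the muscle lineage, gave 16.8, 32.5, 47.4, 46.8 and 29.9 CPM against 9.39, 21.5, 25.6, 22.5 and 11.6 CPM, and PAX7, which marks satellite cells, 8.11, 5.28, 8.55, 8.81 and 10.8 CPM against 4.59, 9.64, 3.51, 4.39 and 3.18 CPM. MYOD1 overlapped through high-FCR pig 1, and PAX7 through low-FCR pig 2 alone. Their log2 differences were 1.04 ± 0.324 and 0.91 ± 0.306 (edgeR FDR = 0.151 and 0.167), while the later factors MYOG and MYF6 had -0.44 ± 0.237 and -0.64 ± 0.389 and myostatin (MSTN) was level at 0.00 ± 0.285.

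Genes of muscle wasting and of protein folding had no single direction, and the medians of both lists, -0.17 each, turned to 0.04 and 0.05 on total counts. In the atrophy and FOXO list 1 of 20 genes was higher and 5 lower at a p-value under 0.05. The higher one was CHRNA1, the acetylcholine receptor subunit that is induced by denervation (1.26 ± 0.382), and GADD45A was among the lower ones (-1.04 ± 0.258), although it also rose by 1.58 per RIN unit and had -0.55 (p = 0.216, edgeR) without RIN in the model. The other atrophy ubiquitin ligase, FBXO32, was level at -0.08 ± 0.435 while TRIM63 was at -0.88 ± 0.291. Among 67 heat shock proteins and chaperones, 4 were higher and 12 lower. DNAJB1, the inducible partner of HSP70, gave 40.6, 33.6, 96.9, 74.5 and 28.4 CPM against 10.7, 38.7, 15.5, 25.6 and 16.1 CPM (1.67 ± 0.331, edgeR FDR = 0.116), with the highest values in the 2 high-FCR pigs of batch 5. HSPA12A, a distant HSP70 relative, had 1.59 ± 0.338, whereas HSF4, a heat shock transcription factor, had -0.58 ± 0.129 and the small heat shock protein HSPB1 -0.81 ± 0.444.

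Metabolic and regulatory lists with few differences included glycolysis (3 of 18 higher, 1 lower, median -0.08), glycogen metabolism (0 of 13 in either direction, -0.15), insulin signalling and glucose uptake (1 higher and 1 lower of 18, 0.09), mTORC1 (1 lower of 16, -0.12), cholesterol synthesis (1 and 1 of 24, 0.00) and the circadian clock (1 and 1 of 21, 0.01). Within them HK1, a hexokinase, had a log2 difference of 0.64 ± 0.219, the insulin-regulated glucose transporter SLC2A4 0.3 ± 0.115 (0.19 without RIN in the model, p = 0.216, edgeR) and the clock factor NPAS2 0.94 ± 0.187. Of 19 cell cycle genes 5 were higher, among them CCND3 (0.57 ± 0.154), CCND2 (0.83 ± 0.244) and TOP2A (0.64 ± 0.232). Of 17 hypoxia genes 4 were higher, among them NDRG1, HK2 (0.9 ± 0.253) and EPAS1, the hypoxia-inducible factor of endothelium (0.85 ± 0.294), with a list median of 0.15. HK2 fell with RIN, by 1.64 per unit (edgeR FDR = 0.0193), was highest in low-FCR pig 2 at 36.7 CPM, and had a log2 difference of 0.16 (p = 0.756, edgeR) without RIN in the model. CCND2 had 0.5 (p = 0.117, edgeR) and TOP2A 0.53 (p = 0.0541, edgeR) in that model.

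The genes that the study named for Duroc were chosen by the study on these same pigs, so they are not independent of this comparison. The study lists NANOS1, LCP1 and MTMR11 as up and TRIM63, KLHL30, C3 and ETV5 as down in Duroc. The signs given here are high minus low FCR in the deposited counts and labels. NANOS1, a translational repressor, gave 3.58, 2.81, 2.64, 2.9 and 5.73 CPM in the high-FCR pigs and 16.5, 8.6, 7.78, 5.87 and 6.04 CPM in the low-FCR pigs, without overlap, although high-FCR pig 5 came within a small step of low-FCR pigs 4 and 5. TRIM63, the muscle ubiquitin ligase MuRF1, gave 251, 287, 163, 122 and 428 CPM against 339, 309, 290, 449 and 498 CPM, and KLHL30, a kelch-like protein, 53.8, 59.3, 27, 18.2 and 56.5 CPM against 87.1, 35.8, 44.6, 83 and 70.6 CPM. Both were lowest in the 2 high-FCR pigs of batch 5, and both groups overlapped. Their log2 differences were -1.54 ± 0.309 for NANOS1 (edgeR FDR = 0.116), -0.88 ± 0.291 for TRIM63 (0.163) and -0.88 ± 0.276 for KLHL30 (0.153). Without RIN in the model TRIM63 had -0.61 (p = 0.0674, edgeR) and KLHL30 -0.59 (p = 0.11, edgeR).

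On the higher side, complement C3 gave 3.06, 4.97, 6.49, 17.5 and 5.73 CPM against 3.36, 4.48, 1.01, 3.77 and 4.25 CPM. High-FCR pig 4, the pig with the highest FCR, stood above all others, and leaving out 1 pig at a time moved the log2 difference of C3 from 1.29 ± 0.433 to between 0.68 and 1.46. ETV5, a transcription factor downstream of ERK, gave 3.51, 17, 3.27, 15.6 and 7.13 CPM against 2.29, 2.46, 1.1, 7.3 and 0.76 CPM, with 2 high pigs and 3 nearer the low-FCR pigs (1.72 ± 0.649, edgeR FDR = 0.194). LCP1, an actin-bundling protein of leukocytes, gave 3.48, 6.86, 5.8, 9.8 and 3.82 CPM against 2.34, 4.67, 3.09, 2.91 and 10.1 CPM, with the highest value in a low-FCR pig (0.59 ± 0.369, edgeR FDR = 0.394). MTMR11, a myotubularin-related protein, had 0.71 ± 0.366 (edgeR FDR = 0.308). With FCR as a number in all 13 Duroc pigs and RIN, age and batch in DESeq2, 10 genes passed an FDR of 0.1, and TRIM63, C3, KLHL30, ETV5, NANOS1, LCP1 and MTMR11 were among them (FDR = 0.015, 0.0158, 0.074, 0.0737, 0.0832, 0.0832 and 0.0832). That model used the 10 pigs of the 2 groups again.

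The 3 Duroc pigs between the groups were not used in the comparison, and their levels did not lie midway. Over all tested genes, 72.6% had a mean log2 level in these 3 pigs nearer to the high-FCR than to the low-FCR mean. The share was 80.5% of the 1351 genes that were higher and 81.3% of the 973 that were lower at a p-value under 0.05. In the mitochondrial ribosomal proteins their list levels were -0.14, -0.18 and -0.14, as in the high-FCR pigs. In the extracellular matrix they were 0.73, 0.33 and 0.52, above 3, 2 and 3 of the 5 high-FCR pigs and above every low-FCR pig. The pigs between the groups had RIN of 8.2, 8.3 and 8.3 and TMM factors above those of the low-FCR pigs, and the part of these measures was not tested. With FCR as a number in the 13 pigs the median log2 change over the same FCR step was 0.39 for the matrix and -0.17 for the mitochondrial ribosomal proteins. In that edgeR model, with age and batch, 1 matrix gene was higher (3.25% of all genes) and 7 mitochondrial ribosomal proteins were lower (2.11% of all genes) at a p-value under 0.05.

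In the 28 Landrace pigs, FCR was tested as a number with RIN, age and batch, and changes are given for the same step of 0.192, the distance between the Duroc group means. Of 11020 genes tested, 0 passed an FDR of 0.1 with edgeR, and 274 (2.49%) were higher and 332 (3.01%) lower with FCR at a p-value under 0.05. Of the genes higher in high-FCR Duroc, 51.5% had a positive change in Landrace, and of those lower, 39.1%, against 49.9% of all genes. The median in Landrace was 0.05 for the extracellular matrix, -0.14 for the endothelium, -0.05 for the mitochondrial ribosomal proteins, -0.08 for complex I and 0.22 for ERK feedback. The slow-fibre list had 0.22 in Landrace against -0.36 in Duroc, where RIN was the one covariate. The test of the FCR by breed term in all 41 pigs called 0 of 11146 genes at an FDR of 0.1 with edgeR, and 582 (5.22%) had a p-value under 0.05. Among them were 1 of 12 slow-fibre genes, 1 of 69 matrix genes, 2 of 18 endothelial genes, 0 of 11 ERK feedback genes, 0 of 27 complex I genes and 4 of 58 mitochondrial ribosomal proteins. RASL11A and NANOS1 had the opposite sign in Landrace (-0.35 and 1), with unadjusted p-values of the breed difference of 0.00461 and 0.00987 (edgeR FDR = 0.922 for both).

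**Figure D5:**
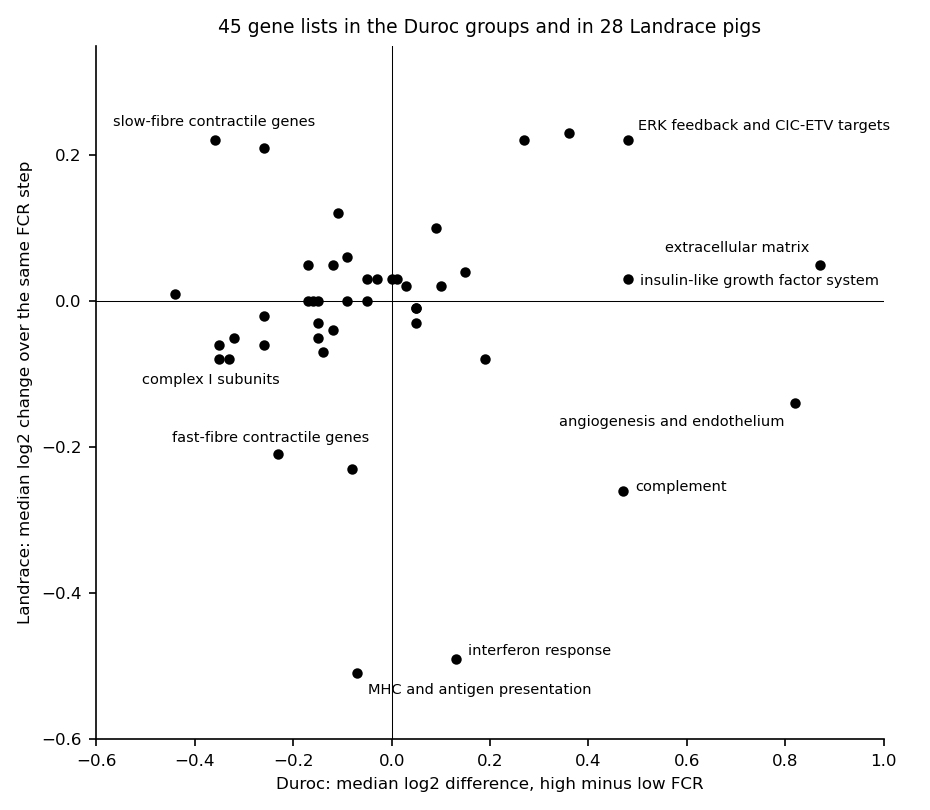
Each point is 1 of the 45 gene lists, with its median log2 difference between high-FCR and low-FCR Duroc on the horizontal axis and its median log2 change over the same FCR step in 28 Landrace pigs on the vertical axis. The models differ: the Duroc groups were compared with RIN as covariate, and FCR in Landrace was a number with RIN, age and batch. The extracellular matrix lies at 0.87 in Duroc and 0.05 in Landrace, and the MHC and interferon lists lie lowest in Landrace, at -0.51 and -0.49.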

How the data were processed

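The deposited values are counts of read pairs per Ensembl gene (25880 genes) for each of 41 pigs, which the authors made without normalization. Per the submitters' notes and the methods, reads were trimmed with Trimmomatic 0.39 and aligned and counted with STAR 2.7.1a on Sscrofa11.1. The unstranded column was used, so overlapping and antisense genes cannot be told apart. Symbols matched 14857 genes. Positions are from RefSeq (Sscrofa11.1), matched by symbol.

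The groups were compared with edgeR 4.0.16 (R 4.3.3; quasi-likelihood test in its legacy form, TMM, filterByExpr with a minimum count of 10) with RIN as covariate, 7 residual degrees of freedom and an FDR of 0.1. Alternatives used DESeq2 1.42.0, limma 3.58.1, and other scalings, filters and covariates. The study's full set (RIN, age and batch) left 2 residual degrees of freedom, so RIN alone was kept; RIN with age, which left 6, was an alternative. Single measures were tested by exact permutation of the pigs. The p-values measure the spread between these pigs, 1 library each. The steps were tested on simulated data. The text names genes under the FDR, the 12 with a symbol and the smallest p in each direction (2 are not reported here), genes the study names for Duroc (IGHM matched no symbol), and up to 3 per list by p-value, and other list members for their known role, chosen after their values were seen. The comparison, the lists and the members were chosen with earlier results of these data known.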

Additional observations from a re-analysis of the deposited data

Results flagged for a closer look

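Within groups of 5 pigs, a value was singled out when its gap to the nearest pig exceeded 0.71 of the group's range. Among 184 such groups 12 values were, while chance gives about 1 in 20. Low-FCR pig 2 accounted for 6 of them. It had 22588717 counts on genes, and 59% of counts on the 20 genes most counted over the 10 pigs together. Its list levels were -0.7 for sarcomere and Z-disc structure and -0.201 for ubiquitin conjugating enzymes and proteases, and it had 39 CPM of MRPL57 and 9.64 CPM of PAX7. The others were the list level of unfolded protein response and amino acid stress in high-FCR pig 2 (-0.265) and of amino acid transporters in low-FCR pig 4 (0.221), SERPINB6 in high-FCR pig 5 (46.5 CPM), C3 in high-FCR pig 4 (17.5 CPM), NANOS1 in low-FCR pig 1 (16.5 CPM) and ETV5 in low-FCR pig 4 (7.3 CPM).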

How the results depend on the processing

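The number of genes under an FDR of 0.1, 1 with RIN in the model, was 1209 with total-count scaling, 958 with DESeq2, 0 with no covariate, 0 with RIN and age, 0 with RIN, age and batch, 91 with batch and RIN in the 8 pigs of batches 2, 4 and 5, 269 with FCR as a number in 10 pigs, and in 13 pigs 0 with edgeR and 10 with DESeq2. Leaving out 1 pig gave 0 to 663. It was 663 without high-FCR pig 2, 453 without high-FCR pig 5, 379 without low-FCR pig 3, 4 without low-FCR pig 4, 2 without low-FCR pig 2, and 0 without any of the others. With no covariate and without the pig of lowest RIN, an alternative chosen after seeing the data, it was 0. Genes with an unadjusted p-value under 0.05 numbered 2324, and 1248 with RIN and age, 1133 with RIN, age and batch, 1480 in the 8 pigs, and 564 (edgeR) and 458 (DESeq2) in 13 pigs. Leaving out 1 pig gave 1480 to 2770, the lowest without high-FCR pig 4. Genes without overlap numbered 215 higher and 332 lower, 803 and 27 on total counts, and 383 and 357 when adjusted for RIN. Total-count scaling split the genes with a p-value under 0.05 into 2798 higher and 110 lower, against 1351 and 973, with the median of all genes at 0.23. Without low-FCR pig 2 the medians were 0.89 for the extracellular matrix and -0.29 for the mitochondrial ribosomal proteins.

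Of the 137 genes chosen by the naming rule, for which the alternatives were run, 2 reversed. SLC7A8 went from 0.6 to -0.01 (edgeR) and -0.03 (DESeq2) with FCR as a number in 13 pigs, and ATF3 from -0.96 to 0.75 with RIN, age and batch, 0.17 in the 8 pigs, and 0.7 (edgeR) and 0.66 (DESeq2) in 13 pigs. The causes were not tested. Pigs were not paired by replicate number, because these numbers follow accession order and tie no pigs together. Pigs that shared a batch were compared in the 8 pigs of batches 2, 4 and 5.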

Other observations

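In the MHC and antigen presentation list (17 genes tested), 1 gene was higher and 1 lower in the Duroc groups at a p-value under 0.05, with a median log2 difference of -0.07. The lower one was CIITA, the master regulator of MHC class II (-0.48 ± 0.146), and the higher one RFX5, which binds class II promoters (0.63 ± 0.218). In Landrace 16 of the 17 were lower with FCR at a p-value under 0.05 (3.01% of all genes), with a median of -0.51 over the same FCR step. The breed difference had an unadjusted p-value under 0.05 in 7 of 17 genes, against 5.22% of all genes, and in RFX5 it was p = 3.57e-05 (edgeR FDR = 0.398). In the interferon list (20 genes tested) 2 genes were higher in the Duroc groups, IFI44 (0.69 ± 0.301) and IFIH1 (0.79 ± 0.344), with a median of 0.13, and in Landrace 8 were lower (3.01% of all genes), with a median of -0.49. There the breed difference had a p-value under 0.05 in 10 of 20 genes. Within the Duroc batches 2, 4 and 5 the MHC list differed by -0.92, -0.34 and 0.43 and the interferon list by 0.02, -0.5 and 0.77, so that neither had a single direction. With FCR as a number in 13 Duroc pigs and the covariates used for Landrace (RIN, age and batch), the medians were 0.45, with 9 MHC genes higher at a p-value under 0.05, and 0.51, with 2 interferon genes higher, against 3.25% of all genes. In the 10 Duroc pigs with these covariates they were 0.34, with 6 higher, and 0.56, with 1 higher, against 7.91% of all genes. MHC genes have close copies whose pairs may not all have been counted.

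Genes with a long genomic span leaned higher. With the genes in 4 equal bins by span in RefSeq, in the shortest (0.204 to 12.7 kb), 7.72% were higher and 14.7% lower at a p-value under 0.05, and in the longest (75.7 to 2620 kb) 19.8% were higher and 2.79% lower, with median log2 differences of -0.1 and 0.16. The median RIN coefficient was -0.14 per unit in the shortest bin and 0.08 in the longest. A position was found for 82.4% of the tested genes. The median span was 72.1 kb for the extracellular matrix list, 9.61 kb for the mitochondrial ribosomal proteins and 4.09 kb for the cytosolic ribosomal proteins, and the part of gene length or RIN in the list differences was not tested.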
